A study of Mus musculus with 8 samples.

Results

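The genes described here are Nkd1 and 9 other genes of canonical Wnt signalling, namely Nkd2, Axin2, Lef1, Sfrp1, Sfrp2, Wif1, Ctnnb1, Tcf7l2 and Rnf43. They were read from a table of 56465 features by gene symbol, taking the feature with the highest mean where a symbol had several, and all 10 were found and had a mean of at least 10 normalized reads. RNA was sequenced from 4 retinas of TG mice, which express human transferrin (replicates 2, 5, 6 and 8), and from 4 retinas of WT mice (replicates 3, 4, 5 and 7). All mice carried the background label C57Bl/6J, and all 8 retinas had been detached by a 10 µl sodium hyaluronate injection under the retina and were taken at day 4, so no attached retina stands beside them. Of the TG retinas, 2 came from males and 2 from females, and 2 were right and 2 left. Of the WT retinas, 3 came from males and 1 from a female, and 3 were right and 1 left. No source used here gives the age of the mice or the promoter of the transgene, and the human transcript was not analysed here. Whether the 8 retinas came from 8 different animals is not spelled out. WT 3, WT 4 and WT 5 were right eyes of males and WT 7 was from a female, so the 4 WT retinas came from 4 mice. TG 2 and TG 5, a left and a right eye of males, could be of 1 mouse, as could TG 6 and TG 8 of females. Errors and p-values measure only the spread between these samples, which in TG may be partly that between 2 eyes of 1 mouse.

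In canonical Wnt signalling, a Wnt ligand joins a Frizzled receptor to the co-receptors Lrp5 or Lrp6, and Dishevelled then halts the cytoplasmic complex of Axin, Apc, Gsk3 and casein kinase that marks beta-catenin for destruction. Beta-catenin enters the nucleus, pairs with Lef and Tcf factors and switches on target genes, and several of those targets are themselves inhibitors of the pathway. Axin2, Nkd1, Rnf43 and Lef1 are known as targets of the pathway in many tissues, so their transcripts are commonly read as a record of pathway activity. In the retina, norrin acts through Fzd4 on the same pathway to shape and seal blood vessels.

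The list was chosen by results of the TG against WT comparison, in which Nkd1 had stood out as lower in TG, together with known roles in the pathway. Its TG and WT values are therefore given as a description, and no p of a single gene of the list is printed for TG against WT. Libraries held 61535690 to 70540242 counted reads in TG and 68433927 to 75866423 in WT. The rod list, 12 markers of the main retinal cell type, summed to 4302830 to 6738370 normalized reads in TG and 4877240 to 5687060 in WT. Some libraries stood apart in markers of neighbouring tissue. The 13 pigment epithelium markers summed to 24685 to 67716 in TG and to 12883 to 28835 in WT 4, WT 5 and WT 7, but to 115954 in WT 3, and 3 of the 13 were at 0 in at least 1 library. The 11 lens markers summed to 21354 in TG 6 and 276 to 5819 in the other TG libraries, whereas WT 3 summed to 26572 and the remaining WT libraries to 156 to 911, and 5 of the 11 were at 0 in at least 1 library. Values are reads normalized by the authors to the size factor of each library.

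Nkd1, which encodes a protein that binds Dishevelled and restrains the pathway, lay on chromosome 8 from 88521341 to 88594887 (mm10). Its TG libraries held 332 (TG 2), 548 (TG 5), 283 (TG 6) and 382 (TG 8) normalized reads, against 585 (WT 3), 740.2 (WT 4), 934 (WT 5) and 791 (WT 7) in WT. All 4 TG libraries lay below all 4 WT libraries, with TG 5 and WT 3 the closest pair. Nkd1 averaged 386 ± 115 in TG and 763 ± 144 in WT (SD, n = 4 each), a ratio of 0.507, and its log2 difference was -1.004 ± 0.23 (SE). Of all 19798 features tested, 5.41% had a lower log2 difference. In bulk tissue, fewer cells of a type and less RNA per cell cannot be told apart. A second, short feature with the symbol Nkd1, from 88560033 to 88562949, held 0 reads in all TG libraries and in 3 WT libraries, and 5 reads in WT 4.

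Markers of other retinal cells are set beside these values. The sum of each list overlapped between the groups, with 0 members passing limma, against 0.0101% of all features. Of all 19798 features, 9472 had a log2 difference above 0 and 10326 below 0. The 12 Mueller glia markers summed to 235072 to 309127 normalized reads in TG and 179657 to 261363 in WT, with 9 of 12 above 0 on the log2 scale. The 12 microglia and macrophage markers summed to 19627 to 47928 in TG and 19719 to 28627 in WT, with 12 of 12 above 0. The 13 endothelial markers summed to 8467 to 14543 in TG and 10808 to 20444 in WT, with 11 of 13 below 0, and TG 6, with the lowest endothelial sum, had the lowest Nkd1, while TG 2, with 14543, had the next lowest. The 12 bipolar cell markers summed to 61991 to 89893 in TG and 58587 to 63061 in WT, with 10 of 12 above 0. The 10 amacrine cell markers summed to 30266 to 54454 in TG and 23316 to 38213 in WT, with 9 of 10 above 0. Of the 12 rod markers 9 lay below 0, and of the 10 ganglion cell markers 6, these summing to 72828 to 130276 in TG and 85008 to 132182 in WT. The part of these markers in the Nkd1 values was not tested.

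Of the 10 genes, Nkd1 was the 1 whose groups did not overlap, against 2.53% of all features in either direction, 1.16% with TG lower and 1.36% with TG higher. None of the 10 passed an adjusted p of 0.05 over all features with limma, edgeR or DESeq2, against 0.0101% of features with limma (0.00505% in each direction), 0.0101% with edgeR and 0.0808% with DESeq2. At an unadjusted p under 0.05 lay 1 of the 10 with each tool, against 4.64% of features with limma, 4.12% with edgeR and 5.34% with DESeq2. Since the same contrast chose the list, nothing is read from these counts. The log2 difference was above 0 for 6 and below 0 for 4, with a median of 0.22, where the median over all features was -0.02.

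**Figure D1:**
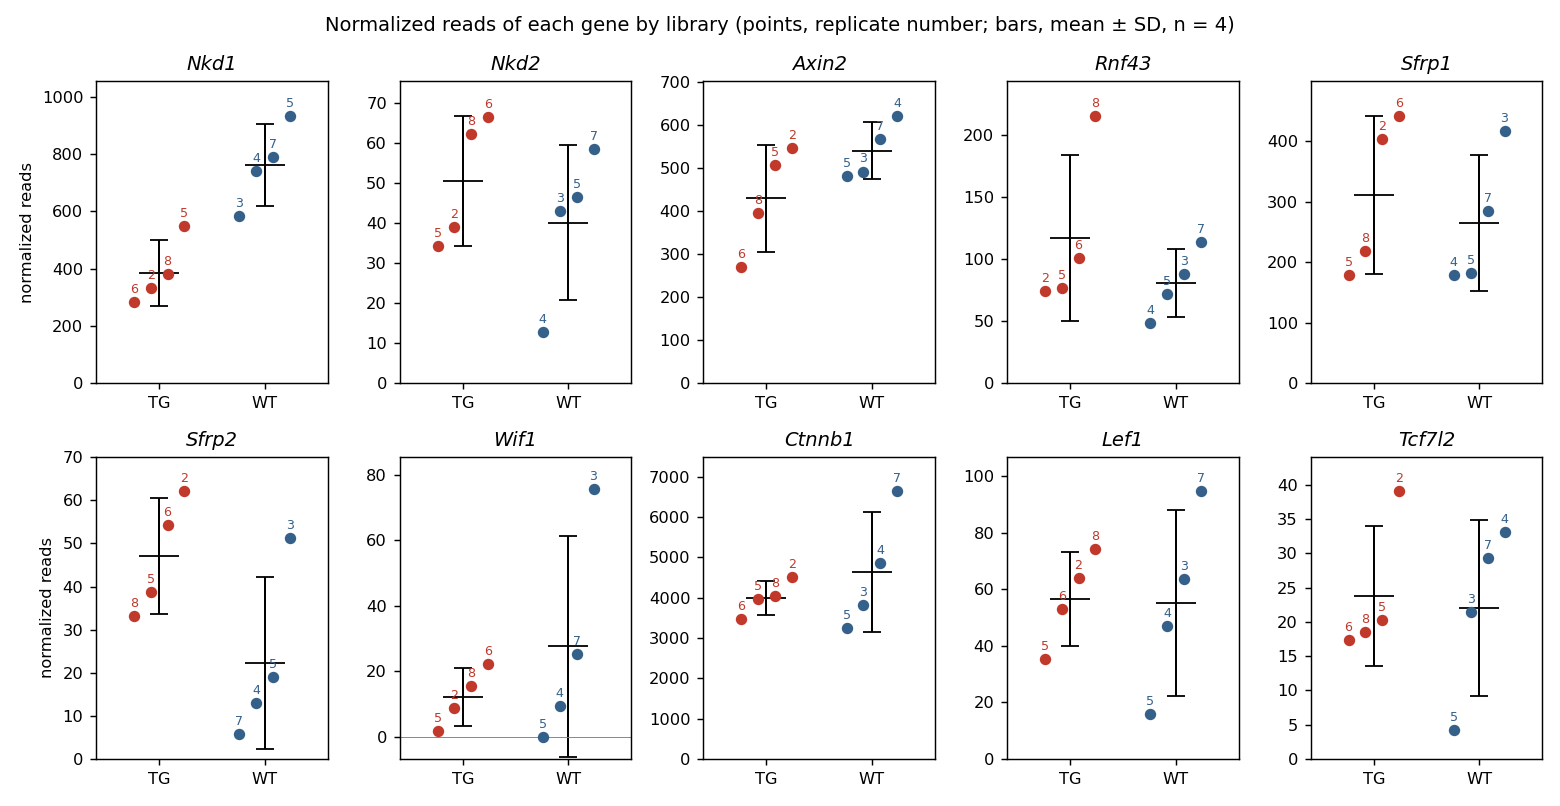
Normalized reads of each of the 10 genes (vertical axes, linear scale) in the TG and WT libraries, each point a library with its replicate number, the black bars giving mean ± SD with n = 4. Nkd1 is the panel in which no TG point reaches a WT point, with 548 in TG 5 below 585 in WT 3.

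The stretch around the annotated start of Nkd1 is shown beside those of Axin2, the best known target of the pathway, and Lef1, a target and a nuclear partner, because these are the genes in which a Lef or Tcf recognition core might be looked for. The windows run from 250 bases before to 50 bases after the RefSeq start (GRCm38.p6), all on the plus strand, and capitals mark the core CTTTG on either strand. They are chr8:88527383-88527682 for Nkd1, chr11:108920099-108920398 for Axin2 and chr3:131110047-131110346 for Lef1.
Nkd1: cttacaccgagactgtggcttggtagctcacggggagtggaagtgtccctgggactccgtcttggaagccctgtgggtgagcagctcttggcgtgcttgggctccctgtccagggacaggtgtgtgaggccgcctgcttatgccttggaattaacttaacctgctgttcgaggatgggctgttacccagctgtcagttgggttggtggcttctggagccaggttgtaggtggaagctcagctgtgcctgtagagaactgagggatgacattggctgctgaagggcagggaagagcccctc
Axin2: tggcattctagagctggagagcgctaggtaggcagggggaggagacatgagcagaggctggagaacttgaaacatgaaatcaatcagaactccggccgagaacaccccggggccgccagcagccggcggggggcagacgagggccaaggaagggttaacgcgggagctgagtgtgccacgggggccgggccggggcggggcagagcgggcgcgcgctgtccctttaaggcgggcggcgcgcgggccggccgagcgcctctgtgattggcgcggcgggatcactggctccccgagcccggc
Lef1: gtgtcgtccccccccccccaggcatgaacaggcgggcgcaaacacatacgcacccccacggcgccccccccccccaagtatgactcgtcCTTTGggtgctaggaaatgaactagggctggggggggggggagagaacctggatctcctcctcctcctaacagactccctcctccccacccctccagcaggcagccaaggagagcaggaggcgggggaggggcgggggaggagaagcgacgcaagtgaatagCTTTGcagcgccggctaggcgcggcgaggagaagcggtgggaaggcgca

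Neither the Nkd1 nor the Axin2 window holds the core, and this Lef1 window holds 2 copies, which begin 161 bases before the start and at base 2 after it. The RefSeq table used here had windows for 9 of the 10 genes, all but Sfrp1, 15 in all because some genes have several starts, and 7 windows of 3 genes (Lef1, Wif1 and Tcf7l2) held the core, against 53.9% of 32851 windows of all genes. The longer forms searched, on both strands, were CTTTGAT, the form CTTTGAA, the form CTTTGTT and the form CTTTGTA. Each contains the core, and they occurred in 2 of the 15 windows, at an internal start of Lef1 and an internal start of Tcf7l2, against 16.9% of all windows. These are letter matches in a short window and say nothing of binding. Windows of 1 gene can overlap. Those of Lef1 from 131110047 and from 131110073 hold the same 2 copies of the core, so the windows counted are not independent. The Nkd1 window holds 6 CpG dinucleotides and the Axin2 window 31, where the median of all windows is 7. The RefSeq start of Nkd1 lies 6292 bases inside the feature in the deposited table, so the window may not be the start used in these retinas.

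Nkd2, the paralogue of Nkd1 (chromosome 13, 73819328 to 73847631), showed another order of libraries. It held 39.0, 34.3, 66.7 and 62.4 normalized reads in TG 2, TG 5, TG 6 and TG 8, against 43.0, 12.9, 46.5 and 58.5 in WT 3, WT 4, WT 5 and WT 7. The groups overlapped, and WT 4 was the lowest library. The log2 difference of 0.45 ± 0.56 (SE) was -0.01 without WT 4.

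Axin2, a scaffold of the destruction complex and a direct target of beta-catenin, lay on chromosome 11 from 108920345 to 108950779. Its TG libraries held 545 (TG 2), 507 (TG 5), 269 (TG 6) and 395 (TG 8) normalized reads, against 491 (WT 3), 621 (WT 4), 480 (WT 5, 479.8 before rounding) and 567 (WT 7). TG 6 and TG 8 lay below every WT library, while TG 2 and TG 5 lay inside the WT range. Axin2 averaged 429 ± 124 in TG and 539.7 ± 66.4 in WT (SD, n = 4 each), and its log2 difference was -0.37 ± 0.24 (SE). That difference was -0.17 without TG 6 and -0.0029 in the males, of which there were 2 TG and 3 WT libraries.

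Set against each other within a library, Nkd1 had 0.61, 1.08, 1.05 and 0.97 reads per Axin2 read in TG 2, TG 5, TG 6 and TG 8, and 1.19, 1.19, 1.95 and 1.39 in WT 3, WT 4, WT 5 and WT 7. This ratio was lower in all 4 TG libraries than in any WT library (0.93 ± 0.22 in TG and 1.43 ± 0.36 in WT, SD, n = 4 each). Being built on Nkd1, it carries the same choice and is a description too. The other ratios that were computed overlapped. Nkd1 had 0.074 to 0.14 reads per Ctnnb1 read in TG and 0.12 to 0.29 in WT, and 4.24 to 15.9 reads per Nkd2 read in TG and 13.5 to 57.4 in WT. The ratio of Axin2 to Ctnnb1 overlapped between the groups, at 0.078 to 0.13 in TG and 0.086 to 0.15 in WT.

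**Figure D2:**
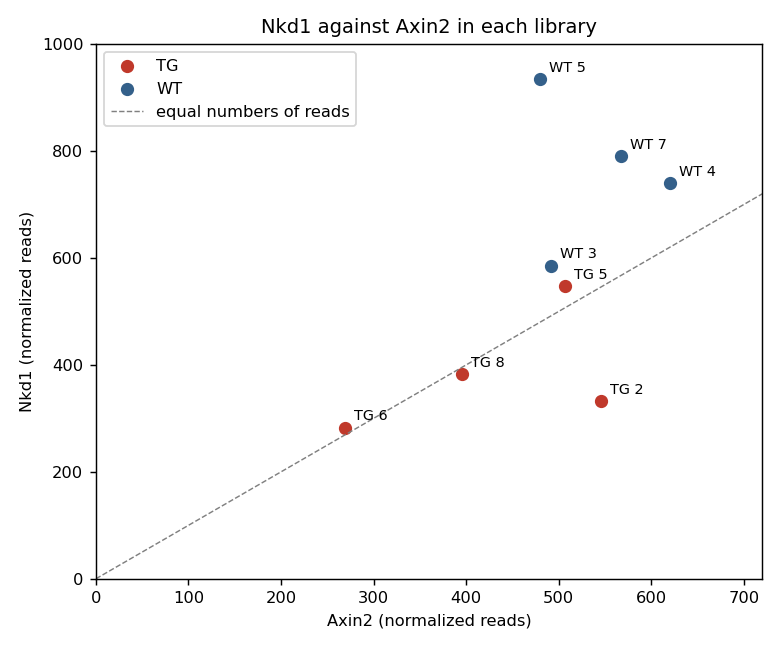
Nkd1 (vertical axis) against Axin2 (horizontal axis), both in normalized reads on linear scales, with each point a library and the dashed line marking equal reads. The WT points all lie above the line by at least the 1.19 ratio of WT 3, while the TG points lie near it, except for TG 2 at 0.61.

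Rnf43, a ubiquitin ligase that removes Frizzled receptors from the cell surface, held 74.5, 76.6, 101 and 216 normalized reads in TG 2, TG 5, TG 6 and TG 8, against 88.0, 48.8, 71.9 and 114 in WT 3, WT 4, WT 5 and WT 7. TG 8 was the highest of the 8 libraries and the other 3 TG libraries lay within the WT range. Its log2 difference of 0.45 ± 0.43 (SE) was 0.11 without TG 8. The feature (chromosome 11, 87662721 to 87735538) also carries the symbol 1110028F11Rik, so the reads of the 2 symbols cannot be told apart.

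The secreted inhibitors are Sfrp1 and Sfrp2, which share a domain with Frizzled and bind Wnt proteins outside the cell, and Wif1, which binds Wnt proteins through a domain of another kind. They lay on chromosome 8 (23411500 to 23449630), chromosome 3 (83766314 to 83774315) and chromosome 10 (121034002 to 121100643), in that order. Sfrp1 held 404, 179.6, 442 and 219 normalized reads in TG 2, TG 5, TG 6 and TG 8, against 418, 179, 182 and 285 in WT 3, WT 4, WT 5 and WT 7. Each group held both high and low libraries, and the log2 difference was 0.21 ± 0.36 (SE). The 3 libraries with most Sfrp1, TG 6, WT 3 and TG 2, were also the 3 with the highest pigment epithelium sums, at 32517, 115954 and 67716. TG 8, with a pigment epithelium sum of 32202, held 219 Sfrp1 reads, and the part of these markers in the Sfrp1 values was not tested.

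Sfrp2 had the largest log2 difference of the 10 genes, 1.39 ± 0.68 (SE). It held 62.1 (TG 2), 38.7 (TG 5), 54.3 (TG 6) and 33.2 (TG 8) normalized reads in TG, against 51.2 (WT 3), 12.9 (WT 4), 19.0 (WT 5) and 5.85 (WT 7) in WT. WT 3 alone brought the WT range into that of TG. Without WT 3 the groups of Sfrp2 no longer overlapped and the log2 difference was 1.91. Groups of fewer libraries separate more easily, and the share of all features without WT 3 was not computed. The log2 difference was 1.83 when TG 6, the TG library with most lens reads, was left out as well. Between 6 and 70 Sfrp2 reads were counted per library.

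Wif1 held 8.86 (TG 2), 1.76 (TG 5), 22.2 (TG 6) and 15.6 (TG 8) normalized reads in TG, against 75.7 (WT 3), 9.21 (WT 4), 0 (WT 5) and 25.3 (WT 7) in WT. The highest and the lowest value were both in WT. The 0 in WT 5 allows up to 3 reads, or 3.17 normalized reads. The log2 difference of -0.24 ± 1.29 (SE) was -1.44 without WT 5 and 0.65 without WT 3, so no direction can be given.

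Ctnnb1, which encodes beta-catenin itself, was the most abundant of the 10. It held 4509, 3956, 3467 and 4035 normalized reads in TG 2, TG 5, TG 6 and TG 8, against 3816, 4860.1, 3253 and 6636 in WT 3, WT 4, WT 5 and WT 7. The TG libraries lay within the WT range, and WT 7 was the highest. The log2 difference was -0.17 ± 0.19 (SE), and 0.02 without WT 7. The feature (chromosome 9, 120933400 to 120960507) also carries the microRNA symbol Mir7090.

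Lef1 and Tcf7l2, the nuclear factors that bind DNA with beta-catenin, had under 100 normalized reads in every library. Lef1 (chromosome 3, 131110297 to 131224357) held 63.8, 35.2, 53.1 and 74.1 normalized reads in TG 2, TG 5, TG 6 and TG 8, against 63.5, 46.95, 15.9 and 94.6 in WT 3, WT 4, WT 5 and WT 7. All TG libraries lay within the WT range, and the log2 difference was 0.23 ± 0.56 (SE). WT 7, the library with most Lef1 and most Ctnnb1, also had the highest sum of the 13 endothelial markers. That sum was 8467 to 14543 in TG, 20444 in WT 7 and 10808 to 11552 in the remaining WT libraries, and its part in the Lef1 and Ctnnb1 values was not tested.

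Tcf7l2 (chromosome 19, 55741810 to 55933654) held 39.0 (TG 2), 20.3 (TG 5), 17.3 (TG 6) and 18.5 (TG 8) normalized reads in TG, against 21.5 (WT 3), 33.1 (WT 4), 4.23 (WT 5) and 29.2 (WT 7) in WT. TG 2 was the highest library and WT 5, with 4 counted reads, the lowest. Its log2 difference was 0.33 ± 0.75 (SE), and -0.28 without WT 5.

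Between genes, levels were compared per kilobase of exon, with union exon lengths from GENCODE M21, which may not be the annotation the authors counted on. Ctnnb1 stood first at 769 ± 82.2 normalized reads per kilobase in TG and 894 ± 286 in WT (SD, n = 4 each), and its lowest library, at 627, lay above the highest of any other gene, 205 for Nkd1. Nkd1 (84.8 ± 25.2 in TG and 167 ± 31.6 in WT), Axin2 (77.9 ± 22.6 and 98.0 ± 12.1) and Sfrp1 (71.2 ± 30.0 and 60.8 ± 25.8) followed, with overlapping libraries. The other 6 genes lay lower, from 21.9 ± 6.23 in TG and 10.3 ± 9.30 in WT for Sfrp2 to 2.71 ± 1.17 and 2.51 ± 1.46 for Tcf7l2, and neighbours in that order overlapped. In TG the first place after Ctnnb1 was thus shared by Nkd1, Axin2 and Sfrp1, while in WT the lowest Nkd1 library, at 128, lay above the highest Axin2 library, at 113.

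**Figure D3:**
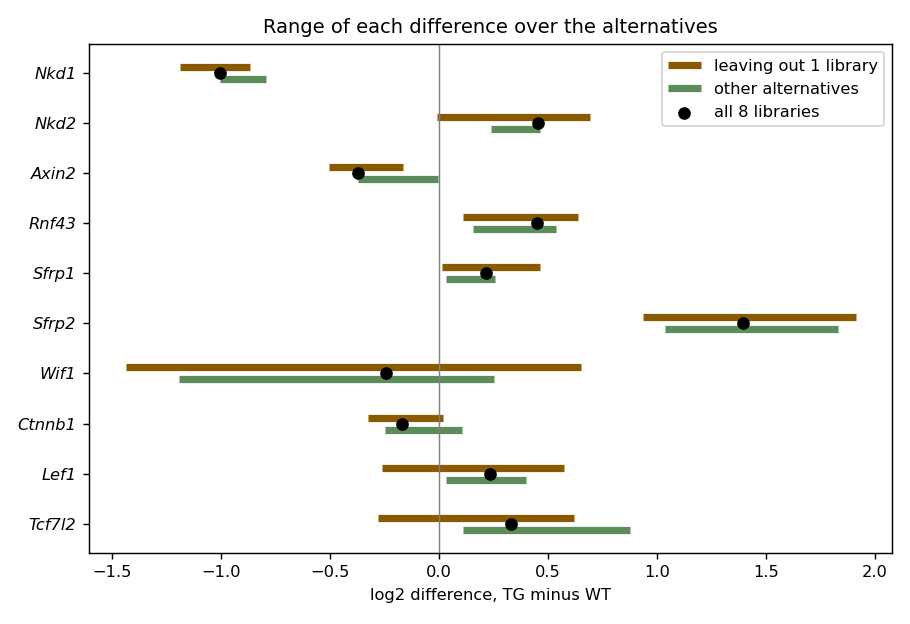
Log2 difference TG minus WT (horizontal axis) of each gene with all 8 libraries (points), its range when 1 library is left out (upper bars) and its range over the other alternatives (lower bars). Nkd1 stays between -1.19 and -0.79 and Sfrp2 between 0.94 and 1.91, while Nkd2, Wif1, Ctnnb1, Lef1 and Tcf7l2 reach both sides of 0.

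The rest of the pathway was read from 6 lists by role, holding 101 genes, of which 85 had a mean of at least 10. With limma over all features, 0 of the 85 passed in either direction, against 0.0101% of all features, and 3 lay at an unadjusted p under 0.05, against 4.64%. edgeR and DESeq2 called 0 as well, against 0.0101% and 0.0808% of all features. At an unadjusted p under 0.05 they had 3 and 4, against 4.12% and 5.34% of all features. The log2 difference was above 0 for 36 and below 0 for 49, with a median of -0.05, and 52.2% of all features lay below 0. The groups did not overlap for 4 of the 85, of which 2 (Frzb and Porcn) were higher and 2 (Rspo2 and Sox17) lower in TG, against 1.36% of all features higher and 1.16% lower.

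Among ligands and the proteins that make or assist them, 11 of 16 lay above 0. Porcn, the enzyme that adds the lipid Wnt proteins need for release, held 1939 ± 126 normalized reads in TG and 1508 ± 210 in WT (SD, n = 4 each; log2 difference 0.37 ± 0.15, SE; adjusted p = 0.918, limma). Rspo2, an R-spondin that shields Frizzled from Rnf43 and Znrf3, held 0 to 10.6 in TG and 11.3 to 26.3 in WT. Its log2 difference was -1.65 ± 1.04 (SE; adjusted p = 0.918, limma). For Rspo2 the closest pair was TG 5 and WT 3, where 1 read stood for 0.88 and 1.02 normalized reads, more than the gap between them. Wnt7b had a log2 difference of -1.40 ± 1.08 (SE), with 1.77 to 91.4 in TG and 8.45 to 139 in WT. Ndp, which encodes norrin, held 1001 ± 164 in TG and 963 ± 66.6 in WT (SD, n = 4 each).

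Of the receptors and their partners, 11 of 20 lay above 0. Fzd4, the norrin receptor, had a log2 difference of -0.23 ± 0.26 (SE), its co-receptor Lrp5 0.16 ± 0.27 and its helper Tspan12 -0.10 ± 0.52. The Frizzled genes with the smallest p were Fzd10 (-0.37 ± 0.20) and Fzd5 (0.23 ± 0.14), together with the Wnt5a receptor Ror1 (0.49 ± 0.32), and each had an adjusted p of 0.918 (limma). Lgr5, an R-spondin receptor and itself a target, stood at -0.49 ± 0.69.

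Inhibitors that act outside the cell or at its surface had 6 of 11 above 0. Frzb, a secreted relative of Sfrp1 and Sfrp2, held 3101, 2584, 3013 and 3885 normalized reads in TG 2, TG 5, TG 6 and TG 8, against 2105, 1767, 2467 and 2573 in WT 3, WT 4, WT 5 and WT 7. The lowest TG library stood just above the highest WT library, and the log2 difference was 0.497 ± 0.17 (SE; adjusted p = 0.918, limma). Notum, which strips the lipid from Wnt proteins, had a log2 difference of 1.14 ± 0.67 (SE), Apcdd1 0.20 ± 0.16 and the glial gene Dkk3 0.38 ± 0.42. Znrf3, the partner of Rnf43 in removing Frizzled, stood at -0.196 ± 0.24.

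In the cytoplasmic list 14 of 16 lay below 0, with a median of -0.17, and among the nuclear partners 10 of 11, with a median of -0.09. Beside the complex itself, the cytoplasmic list holds Dishevelled genes, tankyrases and Ctnnbip1, so it is not a count of the complex. The genes with the smallest p were, in the cytoplasmic list, Dvl3, a Dishevelled gene (-0.44 ± 0.22, SE), Tnks2, a tankyrase that marks Axin for destruction (-0.49 ± 0.26), and Apc2 (0.27 ± 0.15). In the nucleus they were Bcl9, a partner of beta-catenin (-0.55 ± 0.26), Bcl9l (-1.18 ± 1.20) and the co-repressor Tle4 (-0.33 ± 0.24). Bcl9l had 0 reads in TG 6. All 6 had an adjusted p between 0.918 and 0.922 (limma). With males alone the 2 lists had 9 of 16 and 5 of 11 below 0, and without TG 6 they had 11 of 16 and 7 of 11.

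Among other target genes 5 of 11 lay above 0. Dact2, whose protein binds Dishevelled, held 559 ± 140 normalized reads in TG and 369 ± 107 in WT (SD, n = 4 each; log2 difference 0.61 ± 0.26, SE; adjusted p = 0.918, limma), with 403 in TG 6 inside the WT range. Sox17, an endothelial transcription factor, held 195 to 265 in TG and 267 to 324 in WT. Its log2 difference was -0.35 ± 0.225 (SE; adjusted p = 0.918, limma). The closest pair was TG 2 at 265.05 and WT 3 at 267.12, where 1 read stood for 0.89 and 1.02 normalized reads. Bambi stood at 0.27 ± 0.19, Ccnd1, the cyclin gene often named as a target, at -0.03 ± 0.46, and Tcf7, a nuclear factor that is also a target, at -0.07 ± 0.76.

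**Figure D4:**
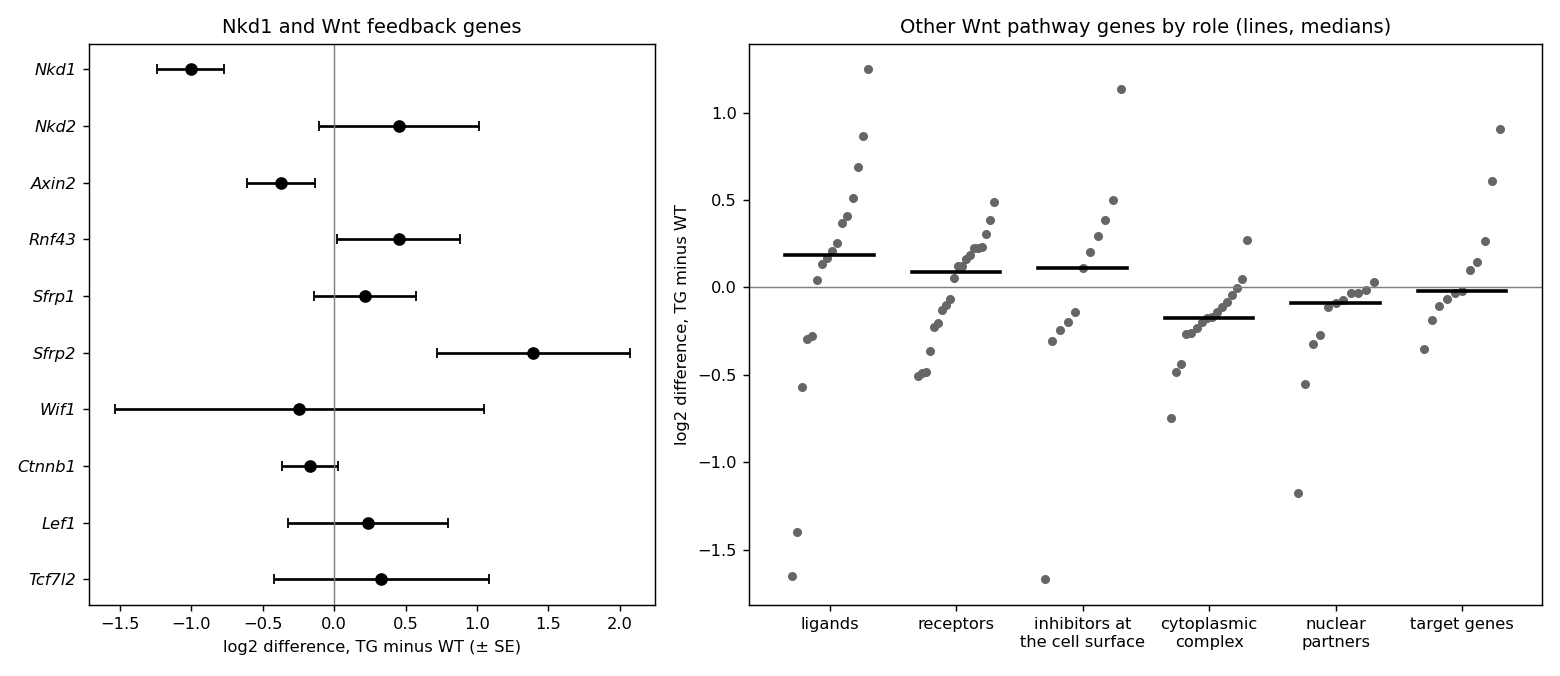
Log2 difference TG minus WT of the 10 genes with SE (left, horizontal axis) and of 85 other Wnt pathway genes by role (right, vertical axis; each point a gene, each line the median of its list). Nkd1 lies at -1.004 and Sfrp2 at 1.39 on the left. The medians on the right run from -0.17 in the list labelled cytoplasmic complex, which also holds other cytoplasmic genes, to 0.19 in the ligands.

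Sex and eye were not used in choosing the list and could be tested, each in a limma fit with genotype as a term. In WT the only female, WT 7, was also the only left eye, so within WT sex and eye cannot be told apart. Each fit therefore carries part of the other factor. With sex and eye in 1 fit, the log2 difference of Rnf43 for males minus females was -1.06. Males against females, 0 of the 10 genes passed with limma, edgeR or DESeq2, against 0.0303%, 0.0303% and 0.0707% of all features. At an unadjusted p under 0.05 lay 0 of 10 with limma, 1 with edgeR and 1 with DESeq2, against 3.23%, 2.76% and 3.92% of features. Rnf43 came closest, with 71.9 ± 14.3 normalized reads in 5 males and 144 ± 62.6 in 3 females (SD) and a log2 difference of -0.87 ± 0.41 (SE; adjusted p = 0.999, limma). All 5 males lay below all 3 females for Rnf43, at 48.8 to 88.0 against 101 to 216. Nkd2 also stood lower in every male, at 12.9 to 46.5, than in any female, at 58.5 to 66.7 (log2 difference -0.87 ± 0.57, SE; adjusted p = 0.999, limma). These were 2 of the 10 genes, named for their smallest p, and males lay wholly below females for 1.47% of all features and apart in either direction for 3.2%. For Nkd1 the log2 difference was 0.17 ± 0.26 (SE).

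Right against left eyes, 0 of the 10 passed with limma, edgeR or DESeq2, against 0%, 0% and 0.00505% of all features. At an unadjusted p under 0.05 lay 0 of 10 with each tool, against 3.7%, 3.21% and 4.58% of features. Sfrp1 came closest, at 235 ± 103 normalized reads in 5 right eyes and 377 ± 82.2 in 3 left eyes (SD), with a log2 difference of -0.73 ± 0.34 (SE; adjusted p = 0.998, limma). WT 3, a right eye, held 418, above 2 of the 3 left eyes. Ctnnb1 had a log2 difference of -0.32 ± 0.20 (SE; adjusted p = 0.998, limma), and 0.015 without WT 7. For the other 8 genes it lay between -1.31 (Wif1, SE 1.39) and 0.40 (Sfrp2, SE 0.74).

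The features whose centred log2 values over the 8 libraries lay closest to those of Nkd1, among 13609 with a symbol and a mean of at least 50, were Zfp593, Npat, Cacul1, Lrig2 and Fam57a, at root mean square differences of 0.25 to 0.29. Npat, which drives histone gene transcription, held 509, 650, 340 and 403 normalized reads in TG 2, TG 5, TG 6 and TG 8, against 544, 865, 776 and 890.1 in WT 3, WT 4, WT 5 and WT 7. Of the other 9 Wnt genes, Axin2 was the closest to Nkd1, at 0.44 and place 237, and Sfrp2 and Wif1 were the farthest, at 1.54 and 2.11. A gene with no change over the 8 libraries would stand at 0.585, and Ctnnb1 stood at 0.586. The distance also grows with the scatter of a gene between libraries. The pattern of Nkd1 holds the TG against WT difference by which it was chosen, so features near it tend to lie lower in TG by construction. These distances are a description too.

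On chromosome 8, all 8 features looked at beside Nkd1, 4 on each side, had groups that overlapped. The nearest measured features, Snx20 after it at 31676 bases and Brd7 before it at 159146 bases, had log2 differences of 0.42 ± 0.41 and 0.096 ± 0.12 (SE). Nod2, an innate immune receptor gene 52459 bases after Nkd1, held 285, 91.6, 74.1 and 195 normalized reads in TG 2, TG 5, TG 6 and TG 8, against 43.0, 51.6, 76.1 and 25.3 in WT 3, WT 4, WT 5 and WT 7. TG 6 lay just below WT 5, so the groups overlapped, and the log2 difference of 1.59 ± 0.498 (SE) had an adjusted p of 0.918 with limma. Cyld, the next gene, stood at -0.41 ± 0.23.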

How the data were processed

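Polyadenylated RNA of 8 detached mouse retinas (4 TG, 4 WT) was sequenced from strand-marking libraries, per the labels' protocols. The deposited table holds DESeq2-normalized read counts, a signal the authors scaled with 1 size factor per library on mm10 (GRCm38). The submitters' processing notes list STAR 2.4.0 and DESeq2, with SAMtools, Picard and FastQC. No source used here gives the counter, its strand setting or the annotation, so reads of overlapping or antisense genes could not always be told apart. All 8 columns were mapped (0 unmapped). Each column was whole multiples of its smallest value (tolerance 0.01 read, met by 100% of values), which gave back the reads for count tests.

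The main fit was limma 3.58.1 (R 4.3.3, trended prior variance) on log2(value + 1), over the 19798 features averaging 10 or more, with Benjamini-Hochberg adjustment over all of them and a threshold of 0.05. That scale can shift the change of low genes either way. The log2 difference of Sfrp2 was 1.39 on it and 1.08 with DESeq2, and that of Wif1 was -0.24 and -1.19. Those of Nkd2, Lef1 and Tcf7l2 also lay nearer 0 with DESeq2. edgeR 4.0.16 (quasi-likelihood), DESeq2 1.42.0, TMM scaling, other pseudocounts and filters, a sex term, an eye term, the male libraries alone and leaving out each library were alternatives; leaving out WT 3 and TG 6 together was added after the data were seen. The fit was tested on simulated counts. A count of 0 was read against 3 reads, for counting error only.

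The 10 genes and all lists were chosen with earlier results of these data known. The genes named are all 10, none dropped for its values, and a fixed set of Ndp, Fzd4, Lrp5, Tspan12, Dkk3, Frzb, Apcdd1, Notum, Sp5, Lgr5, Znrf3, Tcf7 and Ccnd1. Also named were, for each of the 6 lists, 3 genes by smallest p, the 5 features most like Nkd1, and the 2 of the 10 genes with the smallest p for sex and for eye. The neighbours of Nkd1 were chosen after the data were seen. Promoter windows came from RefSeq (GRCm38.p6).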

Additional observations from a re-analysis of the deposited data

Results flagged for a closer look

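In the 4 TG libraries, Tcf7l2 held 39.0 normalized reads in TG 2 and 17.3 to 20.3 in the other TG libraries, a gap that takes up most of the range of the group. TG 2 also had the highest pigment epithelium sum of the TG libraries, 67716, while WT 3, with 115954, held 21.5 normalized reads of Tcf7l2, and the part of these markers in the value was not tested. Over the 10 genes, 20 groups were looked at in this way, with Dixon's 95% critical value, which by construction flags about 1 in 20.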

How the results depend on the processing

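No paired analysis was possible, because TG and WT retinas came from mice of different genotype and the labels give no pairs. For TG against WT, 2 features passed with all 8 libraries, 16 with DESeq2, 4 with males only, 1 with sex as a term, a pseudocount of 0.5, no low-value filter or a minimum mean of 50, and 1 to 3 without 1 library. Male against female, 6 passed, 14 with DESeq2 and 5 to 6 without 1 library. Right against left, 0 passed with limma (732 at an unadjusted p under 0.05), 1 with DESeq2 and 0 to 1 without 1 library. Of the 10 genes, 0 passed for TG against WT under each alternative run. The number of the 10 genes whose groups did not overlap was 1, and 1 to 2 without 1 library. It was 2 without WT 3, and 2 without WT 3 and TG 6 together, Sfrp2 being the second. Groups of fewer libraries separate more easily, and the share of all features was not computed for these settings, so nothing is read from these counts.

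Among the 10 genes, the log2 difference of Nkd1 ran from -1.19 to -0.87 without 1 library and was -0.79 with males only, while that of Axin2 was -0.0029 with males only. The sign turned for Ctnnb1 with males only (0.11) and for Wif1 without WT 3 and TG 6 (0.25). Without 1 library the ranges of the 10 crossed 0 for Nkd2 (-0.0078 to 0.69), Lef1 (-0.26 to 0.57), Wif1 (-1.44 to 0.65), Ctnnb1 (-0.32 to 0.019) and Tcf7l2 (-0.28 to 0.62). Among the other genes named, the sign turned with males only for Tspan12 (0.74), Lgr5 (0.51), Tcf7 (0.41), Ccnd1 (0.56), Tle4 (0.16) and Bcl9l (0.72). Without WT 3 and TG 6 it turned for Tspan12 (0.15), Ccnd1 (0.37) and Bcl9l (0.095). Without 1 library their ranges crossed 0 for Ndp (-0.042 to 0.15), Lrp5 (-0.032 to 0.31), Tspan12 (-0.46 to 0.27), Lgr5 (-0.89 to 0.053), Tcf7 (-0.42 to 0.31), Ccnd1 (-0.56 to 0.26), Bcl9l (-1.84 to 0.26), and that of Ctnnb1 right minus left did so too (-0.48 to 0.015, reached without WT 7). The cause was not tested. Depth limits single values of Wif1 (0 reads in WT 5, 2 in TG 5) and Tcf7l2 (4 reads in WT 5). It also limits the gaps between the groups of Rspo2 and of Sox17.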

Other observations

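Many Wnt ligands were near the limit of detection. Of the 26 genes in the ligand list, 10 had a mean under 10 normalized reads. Wnt3a had 0 reads in all 8 libraries. Wnt1 had 12 and Wnt16 had 16 reads in WT 7 and 0 in the other 7 libraries. Wnt5a had 33, 2, 0 and 0 reads in TG 2, TG 5, TG 6 and TG 8, and 14, 3, 0 and 15 in WT 3, WT 4, WT 5 and WT 7. Wnt4 had 8, 22, 1 and 15 reads in the same TG libraries, and 9, 1, 1 and 2 in the WT libraries. A count of 0 allows up to 3 reads in a library. Among the other roles, Lgr6, Dkk1, Dkk4, Sost and Sp5 fell under the same minimum. Sp5, a direct target in many tissues, had 0, 12, 18 and 0 reads in TG 2, TG 5, TG 6 and TG 8, and 12, 0, 4 and 6 in WT 3, WT 4, WT 5 and WT 7.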
